A study of Mus musculus with 6 samples.

Results

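Membrane repair, the small surface pits called caveolae and the transverse (T-) tubules of muscle fibres were followed through 10 genes in RNA-seq libraries from the mouse tibialis anterior, a mainly fast-twitch muscle of the shin. The genes were Dysf, Anxa1, Anxa2, Anxa5, Anxa6, Trim72, Cav3, Cavin1, Cavin4 and Bin1. They were taken by symbol through their Ensembl IDs, and all 10 were found among the 41025 genes of each table. The mice were C57BL/6 and 8 weeks old. The labels give 3 libraries as wild type and the other 3 as Mettl21e KO, Mettl21e being a gene of the METTL21 protein methyltransferase family. The replicates are described as biological, but the sources used here give neither how the allele was made nor whether each library came from a mouse of its own. The p-values therefore measure the spread between these libraries. The question is which transcript levels change in muscle when Mettl21e is deleted. The groups are called WT-labelled and KO-labelled below, and libraries are numbered 1 to 3 within each, with values given in that order. The numbers do not tie a WT-labelled library to a KO-labelled one.

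A contracting fibre can tear its surface membrane, and the tear is closed by calcium-dependent patching. Dysferlin takes part in bringing vesicles to the tear, annexins bind membrane phospholipids as calcium flows in, and the tripartite-motif protein encoded by Trim72 gathers vesicles at the site. Caveolae need caveolins and cavins, and loss of the muscle caveolin, of Cavin1 or of dysferlin causes muscle disease. T-tubules carry the action potential from the surface to the calcium stores, and Bin1 encodes a protein that bends membrane into such tubules.

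Each library gave FPKM values, which are fragment counts divided by a gene length and by library total. Which length was used is not stated. An annotated length fitted the values for Cav3 and Cavin4 alone among the 10 genes, and for the others the smallest length that fits was taken. These smallest lengths were 651 bases for Anxa1 and 5161 bases for Dysf. Levels of different genes are set side by side below in FPKM, and their order and ratios hold only as far as these lengths do. Between 8476591 and 10856669 fragments stood behind a library. Mettl21e did not separate the labels, at 2.46, 0.309 and 1.23 FPKM in WT-labelled libraries 1 to 3 and at 1.64, 1.45 and 1.88 FPKM in the 3 KO-labelled ones. These values rest on as few as 8 to 63 fitted fragments, and a value per gene cannot show whether single exons are lost. Every direction below is therefore one between labels. WT-labelled library 3 stood apart in neutrophil genes, with S100a8 at 70.8 FPKM against 0 to 6.95 FPKM in the other 5 libraries. The 12 muscle fibre markers summed to between 87688 and 94303 FPKM in every library, led by Tnnt3, the fast troponin T, at 17739 ± 1202 and 18661 ± 1425 FPKM (SD, n = 3 per label, WT-labelled first). The fast troponin C gene Tnnc2 was at only 0.374 to 1.45 FPKM. It shares 592 exon bases with Ube2c on the other strand, and the part of this overlap in its value was not tested. Among the 10 genes, Dysf, Anxa2, Trim72 and Bin1 share 98 to 617 exon bases with a non-coding gene on the other strand, so their levels are uncertain where strand was not used. Those non-coding genes were at 0 to 0.348 FPKM, except A830052D11Rik over Bin1, at 2.73 to 5.64 FPKM.

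The T-tubule gene Bin1 was the highest and Dysf the lowest of the 10 genes in all 6 libraries. Bin1 was 17.31 to 20.89 times as high as Dysf in FPKM within a library, a ratio that also rests on the gene lengths used. The order of mean levels was Bin1 (262 FPKM), Cavin1 (105 FPKM), Trim72 (86.2 FPKM), Anxa6 (80.3 FPKM), Cavin4 (58.5 FPKM), Anxa5 (35.6 FPKM), Cav3 (32.3 FPKM), Anxa2 (26.8 FPKM), Anxa1 (26.7 FPKM) and Dysf (14.2 FPKM). Of the 9 neighbouring pairs in that order, 5 stood the same way round in 6 of 6 libraries: Bin1 above Cavin1, Cavin1 above Trim72, Anxa6 above Cavin4, Cavin4 above Anxa5, and Anxa1 above Dysf. For each of them an exact paired permutation test (two-sided) gave p = 0.0312, the smallest that 6 pairs allow. After Benjamini-Hochberg adjustment over the 9 pairs this was 0.0563, so 0 pairs passed a threshold of 0.05. The order was taken from these same libraries, and 5 pairs at the smallest p cannot pass after adjustment, so the test cannot decide the order. Trim72 and Anxa6, Anxa5 and Cav3, Cav3 and Anxa2, and Anxa2 and Anxa1 changed places between libraries.

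**Figure D1:**
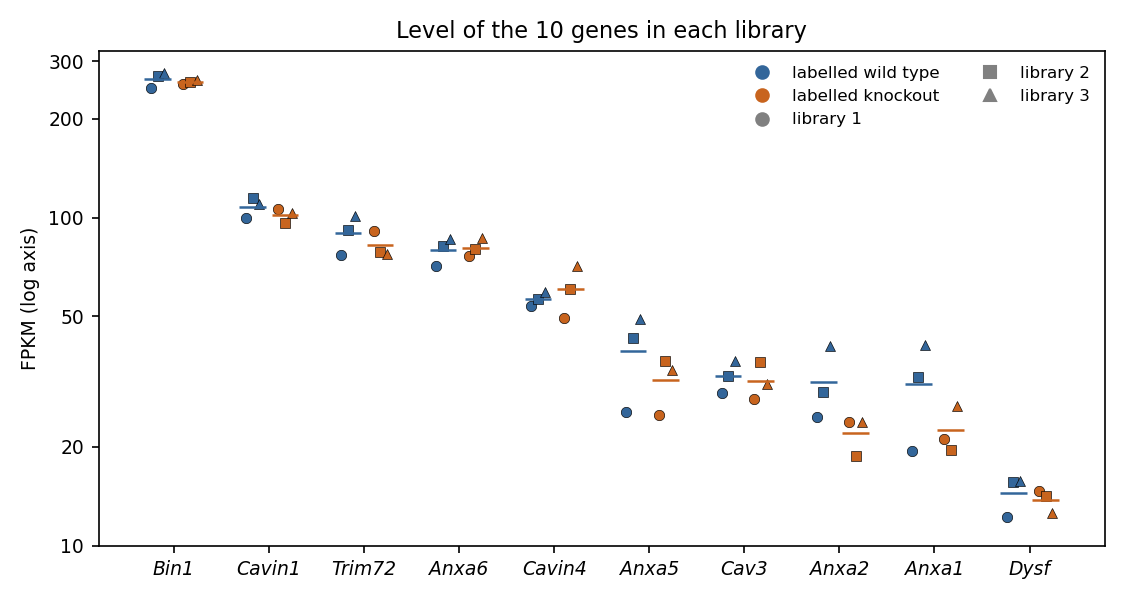
FPKM (log axis) of the 10 genes in each library, ordered by mean level, with points for single libraries (shape gives the library number, colour the label) and lines for the mean of 3. Bin1 sits at 248 to 276 FPKM and Dysf at 12.2 to 15.7 FPKM, and the labels separate without overlap for Anxa2 alone among the 10.

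None of the 10 genes passed the test between labels. The test was limma on log2(FPKM + 1) over the 11383 genes whose mean reached 1 FPKM, with Benjamini-Hochberg adjustment, and each of the 10 had an adjusted p of 0.988. Across all genes tested 0 were called, which is 0%, and 523 (4.59%) had an unadjusted p under 0.05, made up of 3.31% lower and 1.28% higher in the KO-labelled libraries. On that unadjusted scale 1 of the 10 genes, Anxa2, was under 0.05. By limma voom on whole fragments recovered from the FPKM values, 0 genes were called as well, and 467 had an unadjusted p under 0.05. The number of genes under 0.05 unadjusted moved to 1357 when WT-labelled library 1 was left out, to 341 for WT-labelled library 3 and to 343 for KO-labelled library 2. The adjusted test then called 1 gene when WT-labelled library 1 was left out, 3 for WT-labelled library 3 and 1 for KO-labelled library 3, and 0 of these calls fell on the 10 genes. Of the 10, 8 were lower and 2 higher in the KO-labelled libraries, with a median log2 difference of -0.07, where 56.7% of all genes tested were lower and their median was -0.02.

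**Figure D2:**
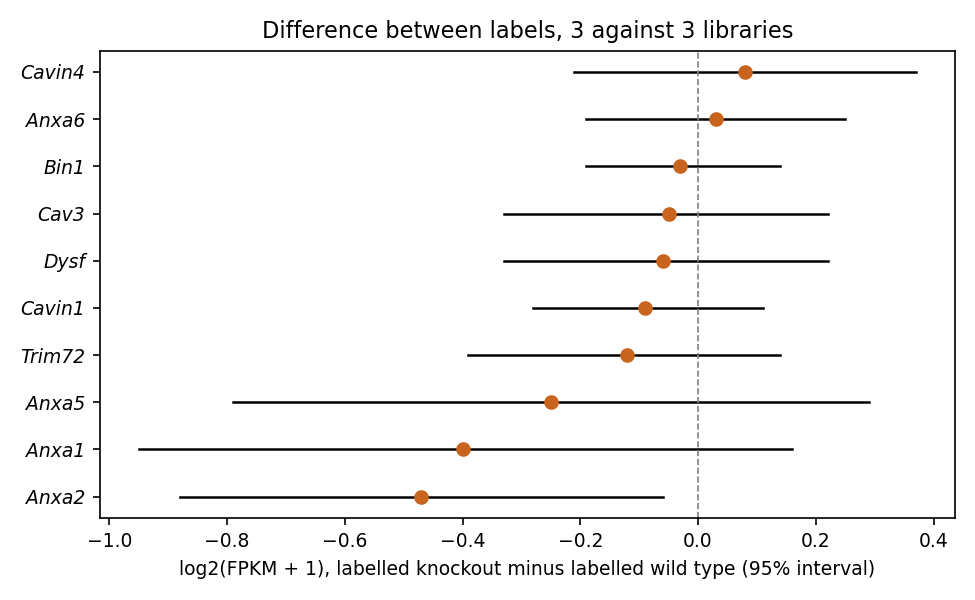
Difference in log2(FPKM + 1), labelled knockout minus labelled wild type, for each of the 10 genes (points), with 95% intervals from limma (lines), 3 against 3 libraries. The interval of Anxa2, -0.88 to -0.06 before any adjustment for the number of genes, lies below 0, and those of the other 9 genes include 0.

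Dysf encodes dysferlin, a large calcium-binding protein of the surface membrane with repeated C2 domains. The gene (ENSMUSG00000033788) lies on chromosome 6 from 84008590 to 84211060 on the plus strand (mm10) and is protein coding, with 16 annotated transcripts. RefSeq places 2 start sites in it, and the value per gene does not tell transcripts from them apart. The 150 bases before the annotated exon at each start are shown for that reason, and they end a little short of the RefSeq start itself. Matches to the GC box letters GGGCGG, on either strand, are in capitals (RefSeq, GRCm38.p6, plus strand, chr6:84008440-84008589 and chr6:84019235-84019384).
Dysf first start: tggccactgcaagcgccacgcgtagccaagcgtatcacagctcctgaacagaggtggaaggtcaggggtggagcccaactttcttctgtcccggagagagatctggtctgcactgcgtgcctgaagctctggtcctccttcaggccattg
Dysf second start: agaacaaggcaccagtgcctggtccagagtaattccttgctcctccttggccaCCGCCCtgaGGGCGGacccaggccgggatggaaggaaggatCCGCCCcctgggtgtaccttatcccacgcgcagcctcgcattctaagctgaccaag
The letters GGGCGG occur 3 times before the second start and 0 times before the first, and 28.6% of all 32851 RefSeq promoter windows of that length hold them. Dysf was at 12.2, 15.6 and 15.7 FPKM in WT-labelled libraries 1 to 3 and at 14.7, 14.2 and 12.6 FPKM in the 3 KO-labelled ones. The lowest and the highest library were both WT-labelled, and the KO-labelled values lay between them. Its log2 difference was -0.06 (SE 0.12), with a 95% interval that as a ratio of FPKM + 1 runs from 0.79 to 1.17. It turned to 0.00062 without WT-labelled library 3 and to 0.01 without KO-labelled library 3. Between 551 and 873 fragments stood behind a value, the smallest whole numbers that fit its FPKM. Counting those alone gives a coefficient of variation of 3.75%, while the 3 WT-labelled libraries varied by 13.5%.

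Trim72 encodes a muscle-enriched tripartite-motif protein of the repair patch (ENSMUSG00000042828, chromosome 7, 128003949 to 128011033, plus strand). It was at 77.0, 91.9 and 101 FPKM in WT-labelled libraries 1 to 3 and at 91.1, 78.4 and 77.6 FPKM in the 3 KO-labelled ones. The KO-labelled values all lay inside the range of the WT-labelled ones. The log2 difference was -0.12 (SE 0.12; 95% interval -0.39 to 0.14), -0.03 without WT-labelled library 3 and -0.23 without WT-labelled library 1. Trim72 stood 5.52 to 6.45 times as high as Dysf within a library, at a ratio of 6.21 ± 0.28 in the WT-labelled libraries and 5.95 ± 0.37 in the 3 KO-labelled ones (SD, n = 3 each).

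The annexins fell into 2 patterns. Anxa6 was steady, while Anxa1, Anxa2 and Anxa5 varied about 2-fold between libraries and were highest in WT-labelled libraries 2 and 3. Those libraries also held the highest values, by smaller margins, of Dysf, Trim72, Cavin1 and Bin1. Outside the 10, Anxa3, Anxa4, Anxa7 and Anxa11 lay between the 2 patterns, their highest library being 1.35 to 1.69 times their lowest. Anxa3 and Anxa11 were highest in a KO-labelled library. Anxa6, whose protein has a doubled annexin core (ENSMUSG00000018340), lies on chromosome 11 from 54979108 to 55033445 on the minus strand. It was at 71.0, 81.9 and 86.0 FPKM in WT-labelled libraries 1 to 3 and at 76.5, 80.3 and 86.4 FPKM in the 3 KO-labelled ones. Its log2 difference was 0.03 (SE 0.10; 95% interval -0.19 to 0.25), and its highest library was 1.22 times its lowest. The difference turned to -0.05 without WT-labelled library 1 and to -0.02 without KO-labelled library 3.

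Anxa2 encodes annexin A2, which forms a complex with the S100 protein encoded by S100a10 and links membranes to actin. The gene (ENSMUSG00000032231) lies on chromosome 9 from 69453620 to 69491795 on the plus strand. Since it is the member whose labels separated, the 150 bases before its first annotated exon are printed, with the GC box letters in capitals (RefSeq, GRCm38.p6, plus strand, chr9:69453470-69453619).
Anxa2: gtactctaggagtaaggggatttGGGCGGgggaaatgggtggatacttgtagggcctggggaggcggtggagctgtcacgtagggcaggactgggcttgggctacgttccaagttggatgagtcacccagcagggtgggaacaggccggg
The letters GGGCGG occur here 1 time, and the E-box and TATA box letters 0 times. Anxa2 was at 24.6, 29.5 and 40.6 FPKM in WT-labelled libraries 1 to 3 and at 23.8, 18.7 and 23.9 FPKM in the 3 KO-labelled ones. All 3 KO-labelled libraries lay below all 3 WT-labelled ones, with WT-labelled library 1 close to the highest of them. Non-overlapping groups with knockout lower were found for 5.64% of all genes tested, and in either direction for 9.48%. The log2 difference was -0.47 (SE 0.18, limma unadjusted p = 0.0284, adjusted 0.988). Permuting the labels of its 6 FPKM values (exact, two-sided) gave p = 0.1, the smallest that 3 against 3 libraries allow. Without WT-labelled library 3, the one with the neutrophil genes, the difference was -0.28, and without WT-labelled library 1 it was -0.63 (limma adjusted p = 0.215, with 0.215 to 1 over the 14 alternatives). At least 221 to 406 fragments stood behind its values.

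Anxa1 encodes annexin A1, known from the control of inflammation and from membrane repair (ENSMUSG00000024659, chromosome 19, 20373428 to 20390944, minus strand). It was at 19.4, 32.7 and 40.8 FPKM in WT-labelled libraries 1 to 3 and at 21.2, 19.6 and 26.6 FPKM in the 3 KO-labelled ones. WT-labelled libraries 2 and 3 lay above all others, and WT-labelled library 1 was the lowest of the 6. Between labels the log2 difference was -0.40 (SE 0.24; 95% interval -0.95 to 0.16), -0.17 without WT-labelled library 3 and -0.69 without WT-labelled library 1 (limma adjusted p = 0.175, with 0.175 to 1 over the 14 alternatives). The values rest on at least 133 to 235 fragments. Counting these alone gives a coefficient of variation of 7.87%, against 34.9% among WT-labelled libraries and 16.5% among KO-labelled ones.

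Anxa5 encodes annexin A5, which assembles on phosphatidylserine-rich membrane and is known from repair patches (ENSMUSG00000027712, chromosome 3, 36448923 to 36475894, minus strand). It was at 25.6, 42.9 and 49.2 FPKM in WT-labelled libraries 1 to 3 and at 25.1, 36.5 and 34.4 FPKM in the 3 KO-labelled ones. Library 1 was the lowest under each label, and WT-labelled libraries 2 and 3 were the highest. Between labels the log2 difference was -0.25 (SE 0.24; 95% interval -0.79 to 0.29). It was -0.53 when WT-labelled library 1 was left out, -0.07 for WT-labelled library 3 and -0.09 for KO-labelled library 1.

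The summed markers of fibroblasts, leukocytes, adipocytes, endothelium, mural cells and tendon were each highest in WT-labelled libraries 2 and 3 as well. The 10 fibroblast and matrix markers summed to 288, 571 and 554 FPKM in WT-labelled libraries 1 to 3 and to 319, 325 and 398 FPKM in KO-labelled libraries 1 to 3, with 0 of 10 listed at 0 in all libraries. All 10 were lower in the KO-labelled libraries (median log2 difference -0.37), and 0 passed the test. The most abundant, Dcn, a proteoglycan of the matrix, was at 119 ± 22.5 and 106 ± 15.2 FPKM (SD, n = 3 each, WT-labelled first). The 10 leukocyte markers summed to 42.7, 102 and 89.2 FPKM in the WT-labelled libraries and to 45.1, 39.7 and 50.4 FPKM in the 3 KO-labelled ones. All 7 that were tested were lower in the KO-labelled libraries (median log2 difference -0.50), 0 passed the test, and Cd74 led them, at 26.7 ± 13.0 and 16.5 ± 1.87 FPKM. The 6 neutrophil markers summed to 1.68, 8.94 and 218 FPKM in WT-labelled libraries and to 6.21, 1.63 and 15.4 FPKM in KO-labelled ones. All 5 tested adipocyte, 5 tested tendon and 5 tested neutrophil markers were lower in the KO-labelled libraries, as were 8 of 10 endothelial, 4 of 7 mural, 1 of 4 satellite cell and 3 of 11 muscle fibre markers. Adipocyte markers summed to 99.5, 127 and 144 FPKM in the WT-labelled libraries and to 86.4 to 101 FPKM in the KO-labelled ones, led by Fabp4 at 83.4 ± 5.92 and 72.0 ± 1.88 FPKM. Endothelial markers, led by Egfl7, summed to 237, 325 and 301 FPKM and to 264 to 294 FPKM (WT-labelled first, as in the next sums). For mural markers, led by Rgs5, the sums were 199, 334 and 337 FPKM and 268 to 297 FPKM. For tendon markers, led by Thbs4, they were 42.2, 109.6 and 78.6 FPKM and 39.8 to 59.9 FPKM. The 9 markers of satellite cells and regenerating fibres, led by Myod1, summed to 26.5 to 39.3 FPKM and 22.3 to 40.0 FPKM, and Mymx, which encodes a fusion protein, was listed at 0 in all 6 libraries. The part of these cells in the annexin values was not tested, and fewer cells of a type cannot be told apart from less RNA per cell in bulk muscle.

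**Figure D3:**
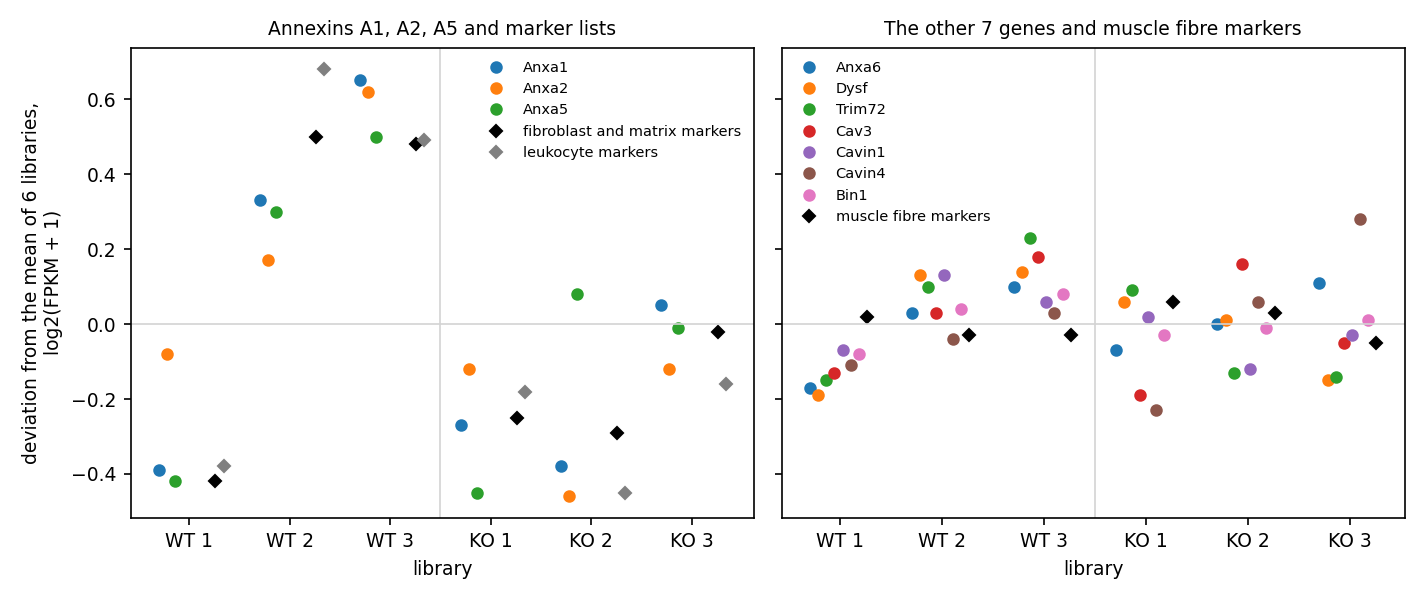
Deviation of log2(FPKM + 1) from the mean of the 6 libraries, for Anxa1, Anxa2, Anxa5 and the means of the fibroblast and leukocyte markers, 2 of the marker lists with this pattern (left) and for the other 7 genes and the mean of the muscle fibre markers (right), 1 column of points per library. The left panel reaches from -0.46 to 0.68 and the right panel from -0.23 to 0.28 on the same axis.

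Across the 6 libraries the spread of the 10 genes differed. The coefficient of variation was 32.1% for Anxa1, 28.1% for Anxa2 and 26.7% for Anxa5. It lay between 3.8% (Bin1) and 12.5% (Cavin4) for the other 7, where the median was 9.09% over the 5289 genes whose mean reached 10 FPKM. These are descriptions over libraries of both labels, and the difference in spread was not tested.

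Cav3 encodes the caveolin of muscle fibres (ENSMUSG00000062694, chromosome 6, 112459505 to 112472872, plus strand, 1 annotated transcript of 2 exons), and Cavin4 the cavin restricted to muscle (ENSMUSG00000028348, chromosome 4, 48663514 to 48673502, plus strand, also 1 transcript of 2 exons). The 150 bases before the starts of this fibre-specific pair are shown to set their promoters side by side. Capitals mark the E-box letters CAGCTG, a binding sequence of myogenic factors, and the TATA box letters TATAAA (RefSeq, GRCm38.p6, plus strand, chr6:112459355-112459504 and chr4:48663364-48663513).
Cav3: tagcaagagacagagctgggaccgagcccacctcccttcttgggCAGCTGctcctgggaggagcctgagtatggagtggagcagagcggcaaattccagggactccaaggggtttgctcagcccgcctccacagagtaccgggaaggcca
Cavin4: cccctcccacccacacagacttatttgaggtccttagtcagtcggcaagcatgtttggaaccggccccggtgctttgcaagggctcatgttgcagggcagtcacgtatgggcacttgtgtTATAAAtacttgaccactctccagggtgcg
CAGCTG occurs 1 time before Cav3 and is held by 8.39% of all promoter windows of this length, and TATAAA occurs 1 time before Cavin4 and is held by 7.57%. Both strands were searched, as they were for CACCTG, the CArG box and the MEF2 site, which had 0 matches in both windows. A match describes the letters and is not a measured site.

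Cav3 was at 29.3, 33.0 and 36.6 FPKM in WT-labelled libraries 1 to 3 and at 28.0, 36.2 and 31.0 FPKM in the 3 KO-labelled ones. The ranges were nearly the same, and the log2 difference was -0.05 (SE 0.12; 95% interval -0.33 to 0.22). It turned to 0.02 without WT-labelled library 3 and to 0.03 without KO-labelled library 1. Cavin4 was at 53.9, 56.4 and 59.4 FPKM in the WT-labelled libraries and at 49.6, 60.7 and 71.0 FPKM in the 3 KO-labelled ones. The knockout labels held both its lowest and its highest value. The log2 difference was 0.08 (SE 0.13; 95% interval -0.21 to 0.37), and it turned to -0.04 without KO-labelled library 3. Cavin1, the cavin that all caveolae need (ENSMUSG00000004044), lies on chromosome 11 from 100956733 to 100970887 on the minus strand. It was at 99.8, 115 and 109.7 FPKM in the WT-labelled libraries and at 106, 96.4 and 103 FPKM in the 3 KO-labelled ones. Its log2 difference was -0.09 (SE 0.08; 95% interval -0.28 to 0.11), and its highest library was 1.19 times its lowest. The difference was -0.04 without WT-labelled library 2 and -0.14 without WT-labelled library 1.

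In FPKM, the caveolin found in many cell types stood above the muscle caveolin, though the gene lengths used are not stated. Cav1, which endothelial cells and adipocytes express, was at 169.8, 212 and 241 FPKM in WT-labelled libraries 1 to 3 and at 193, 212 and 203 FPKM in the 3 KO-labelled ones. It stood 5.79 to 6.87 times as high as Cav3, at a ratio of 6.28 ± 0.43 in the WT-labelled libraries and 6.42 ± 0.52 in the 3 KO-labelled ones (SD, n = 3 each). Cavin1 stood 1.45 to 2.14 times as high as Cavin4, at 1.91 ± 0.11 and 1.73 ± 0.37. Neither ratio separated the labels.

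Bin1 (ENSMUSG00000024381) encodes amphiphysin II, whose muscle form shapes T-tubules and is mutated in centronuclear myopathy. It was at 248, 269.7 and 276 FPKM in WT-labelled libraries 1 to 3 and at 256, 259.6 and 263 FPKM in the 3 KO-labelled ones. All 3 knockout values lay inside the wild-type range. The log2 difference was -0.03 (SE 0.07), and its 95% interval, -0.19 to 0.14, allows a ratio of FPKM + 1 between 0.88 and 1.10. The direction turned to 0.02 when each library's median was subtracted and to 0.01 both under quantile normalization and without WT-labelled library 3. At least 5095 to 6690 fragments stood behind its values, and counting these alone gives a coefficient of variation of 1.31%.

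Related genes were taken from 4 lists, which share some members with the 10 and of which 0 genes passed the test. In the list of annexins and their S100 partners, 12 of 17 genes were tested, 4 higher and 8 lower, with a median log2 difference of -0.15. The 8 tested genes outside the 10 were 3 higher and 5 lower, with a median of -0.03, near the -0.02 of all genes tested. The list median was -0.03 without WT-labelled library 3, -0.24 without WT-labelled library 1 and -0.06 with no filter on low values. Subtracting each library's median gave -0.10. S100a11 was high in the same libraries as Anxa1. S100a11, whose protein binds annexin A1, was at 18.0, 27.9 and 28.8 FPKM in WT-labelled libraries 1 to 3 and at 18.3, 13.7 and 18.0 FPKM in the 3 KO-labelled ones (limma log2 difference -0.53, SE 0.19, adjusted 0.988). S100a6, a calcium-binding protein gene, was at 43.9 ± 16.1 and 34.6 ± 2.81 FPKM (SD, n = 3 each, WT-labelled first). S100a10 (picked for its pairing with Anxa2 once its values were known) was at 33.7, 28.7 and 44.6 FPKM in the WT-labelled libraries and at 28.1, 34.1 and 27.3 FPKM in the 3 KO-labelled ones, which is 0.97 to 1.82 times Anxa2. S100a1, an S100 gene of heart and skeletal muscle, was at 157 ± 16.1 and 163 ± 14.2 FPKM, and Anxa11 at 43.1 ± 4.66 and 47.1 ± 6.48 FPKM. Anxa10 and S100a4 were listed at 0 in all 6 libraries. S100a4 shares 302 exon bases with Gm42674 on its own strand.

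In the list of ferlins and membrane repair genes, 26 of 29 were tested, 10 higher and 16 lower, with a median of -0.04. This list median was 0.01 with each library's median subtracted. Capns1, the small calpain subunit, was at 180.4 to 199.9 FPKM in the WT-labelled and 163 to 192 FPKM in the KO-labelled libraries. Capn3, the muscle calpain, was at 77.8 ± 3.51 and 76.5 ± 3.89 FPKM (SD, n = 3 each, WT-labelled first), and shares 386 exon bases with Ganc on its own strand, so its value is uncertain. Chmp4b, an ESCRT subunit that pinches off damaged membrane, was at 86.1 ± 1.12 and 87.5 ± 5.16 FPKM. Ehd4, a membrane-remodelling ATPase gene, had the smallest unadjusted p of the list (0.0469, limma adjusted p = 0.988), at 44.3, 80.4 and 85.4 FPKM in the WT-labelled libraries and 57.7, 41.1 and 36.5 FPKM in the 3 KO-labelled ones. Its WT-labelled libraries 2 and 3 were again the high ones. Myof, the ferlin closest to Dysf (also picked once its values were known), was at 1.21 ± 0.377 and 0.922 ± 0.236 FPKM.

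In the caveolae list 10 of 11 genes were tested, 1 higher (Cavin4) and 9 lower, where 56.7% of all genes tested were lower. The list median was -0.05, with 0.03 without WT-labelled library 3 and -0.15 without WT-labelled library 1. It was -0.0017 with each library's median subtracted. Pacsin3, the muscle member of a family that bends membrane at caveolae, was at 255 to 293 FPKM in the WT-labelled and 249.8 to 287 FPKM in the KO-labelled libraries. Ehd2, an ATPase at the caveolar neck, was at 34.9 ± 5.25 and 31.2 ± 3.76 FPKM. In the T-tubule and triad list 19 of 20 genes were tested, 10 higher and 9 lower, with a median of 0.00 (0.05 with each library's median subtracted). The labels did not overlap for 2 of the 19, Cmya5 and Inpp5k (the latter picked out by its values), as for 9.48% of all genes tested. The log2 difference of Inpp5k was 0.07 (limma unadjusted p = 0.407). Tcap, a titin-binding protein gene of the Z-disc, was at 3188 ± 325 and 3010.4 ± 541 FPKM. Trdn, encoding triadin of the calcium release complex, was at 296 ± 20.3 and 319 ± 36.7 FPKM. Ryr1, the calcium release channel, was at 223 ± 47.5 and 243 ± 15.0 FPKM. Cmya5, which encodes a large muscle protein tied to dysferlin and the triad, was at 180.4, 208 and 205 FPKM in the WT-labelled libraries and at 223, 229 and 224 FPKM in the 3 KO-labelled ones. The labels did not overlap for Cmya5, as for 3.84% of all genes tested with knockout higher (log2 difference 0.19, SE 0.08, limma adjusted p = 0.988), but Cmya5 shares 2451 exon bases with A630019I02Rik on the other strand, which leaves its level uncertain.

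**Figure D4:**
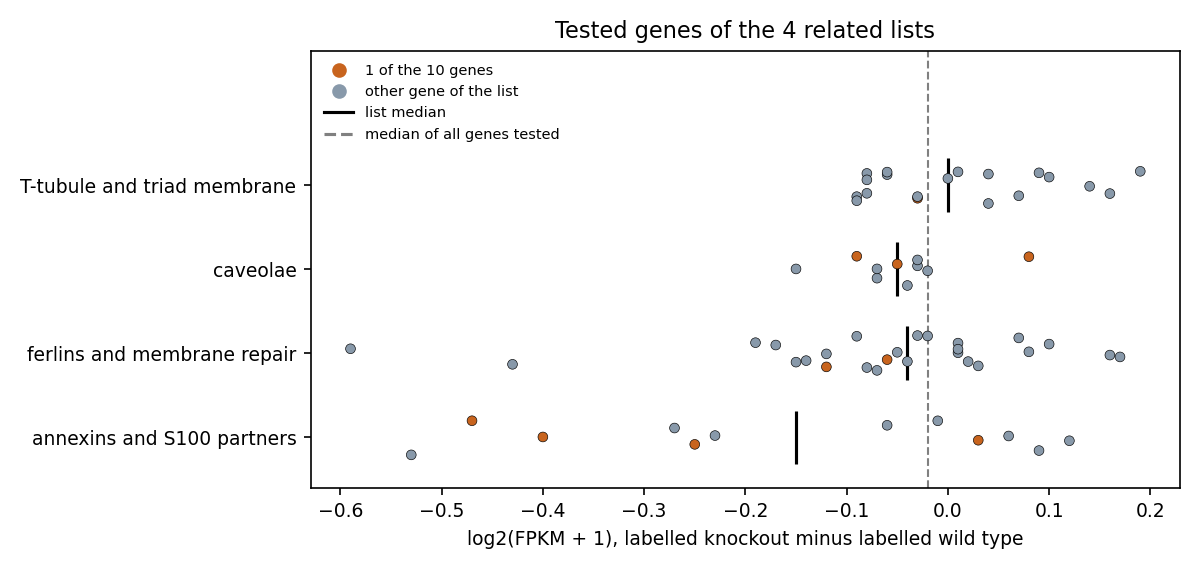
Difference in log2(FPKM + 1), labelled knockout minus labelled wild type, for the tested genes of the 4 related lists (vertical position within a list is random), with list medians and the median of all genes tested, -0.02. The annexin list has its median at -0.15 (-0.03 for its genes outside the 10), and the other 3 lists have theirs between -0.05 and 0.00.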

How the data were processed

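The authors deposited 1 table of FPKM per gene and library. TopHat2 2.1.1, Cufflinks 2.2.1 and the build mm10 are named per the submitters' processing notes, and no role, annotation, strand setting or filter is given in the sources used here. Groups and replicate numbers came from the titles. Symbols were matched for 40452 of 41025 genes. Positions and overlaps are from a GENCODE annotation of mm10. Promoter sequences are from RefSeq, which has an entry for 8 of the 10 genes. For 4 of them the sequence before the start is printed, cut where an annotated exon of the gene begins earlier. The genes and lists were chosen with earlier results of these data known.

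Differences were tested with limma 3.58.1 (R 4.3.3) on log2(FPKM + 1), its variance prior following mean level, over the 11383 genes whose mean reached 1 FPKM, with Benjamini-Hochberg adjustment over all of them and a threshold of 0.05. A log2 difference is labelled knockout minus labelled wild type on this scale, which understates changes of low genes. The fit was tested on simulated data. Whole fragments were recovered by finding, for each of 23559 genes, 1 whole length that made all 6 values whole within 0.002 of a fragment. Unless an annotated length was matched, a multiple of that length would fit a single gene as well, so fragments are the smallest numbers possible. Recovered in this way, they summed to 99.8% of the total of each library, so multiples can hold only for genes with a small part of the fragments. Errors from fragments cover counting error only. Beside the 10 genes, each of the 4 related lists is named by the 3 genes of highest mean and the 1 of smallest unadjusted p, and each marker list by its highest gene, and 1 marker list is not reported here. The 6 pairs of libraries within a label differed by more than sampling noise. Alternatives were median subtraction, quantile normalization, a pseudocount of 0.1, no filter, a filter at a mean of 5 FPKM, blocking on replicate number, no trend, voom on recovered fragments, and leaving out each library. Python 3.11.15, pandas 2.3.3, numpy 2.4.6, scipy 1.17.1 and matplotlib 3.10.9 were used.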

Additional observations from a re-analysis of the deposited data

How the results depend on the processing

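Under the 14 alternatives 0 of the 10 genes and 0 genes of the 4 related lists were called. Anxa1, Anxa2, Anxa5, Trim72 and Cavin1 stayed lower in the KO-labelled libraries under all 14. The replicate block, the fit without trend and the changed filters cannot alter a gene's difference, so only the other alternatives bear on its direction. With 1 library left out, Trim72 lay between -0.23 and -0.03 and Cavin1 between -0.14 and -0.04. The annexin list median then lay between -0.24 and -0.03. Over all genes the number called was 0 under every alternative except leaving out a library, where it ranged from 0 to 3. The replicate block called 0 genes and changed no call. With 1 library of each label per number it cannot move a difference, so Anxa2 stayed at -0.47 and only its error could change. The labels tie no number to a shared animal or day, and deviations of same-numbered libraries correlated at 0.0236, -0.0408 and 0.0232 across genes. Leaving out 1 library moved Dysf between -0.17 and 0.01, Anxa6 between -0.05 and 0.08, Cav3 between -0.15 and 0.03, Cavin4 between -0.04 and 0.21 and Bin1 between -0.07 and 0.01, so the directions of these 5 genes turn with single libraries. Scaling turned Bin1 to 0.02 (library median subtracted) and 0.01 (quantile normalization). Among the related genes, subtracting the median turned Capn3 to 0.02, Pacsin3 to 0.01 and Cav1 to 0.02, and quantile normalization turned Pacsin3 to 0.02 and Cav1 to 0.01. Leaving out 1 library moved S100a1 between -0.03 and 0.13, Chmp4b between -0.01 and 0.07, Capn3 between -0.07 and 0.01, Pacsin3 between -0.10 and 0.03, Cav1 between -0.16 and 0.09 and Tcap between -0.22 and 0.04. Without a filter, over the 23559 genes above 0 in a library, 987 had an unadjusted limma p under 0.05. With a mean of at least 5 FPKM the number was 339, over fewer genes than the 11383 of the main test. The order of levels gave 0 pairs past the threshold on the linear scale and without any 1 library, where 5 pairs of values allow no p below 0.0625. Anxa1, Anxa2, Anxa5 and Cav3 had the fewest fitted fragments of the 10 genes, 133 to 439 per library. Counting these alone gives coefficients of variation of 5.25% (Cav3) to 7.87% (Anxa1). The spread was larger for each of these genes, at 11% to 34.9% among WT-labelled and 13% to 18.9% among KO-labelled libraries.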
